A study of Mus musculus with 24 samples.

Results

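The genes described here are 10 transcription factors of the skeletal lineage, taken by name from the expression table of mouse primary chondrocytes: Sox9, Sox5 and Sox6, their relative Sox4, the RUNX genes Runx1, Runx2 and Runx3, and Trps1, Nkx3-2 and Prrx1. All 10 were among the 17094 genes of the table, and all 10 were among the 12178 genes with at least 1 FPKM (fragments per kilobase of gene, scaled to the library's mapped fragments) in at least 3 libraries. Nkx3-2 reached 1 FPKM in 4 libraries only, and it passed this filter through untreated normal culture at 36 h, where it was highest, so its differences from that group were favoured by the filter.

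Poly(A)-enriched RNA of chondrocytes digested from cartilage of wild-type mice was sequenced in 24 libraries, 3 per group. There were 8 groups: chondrocytes co-cultured with dermal fibroblasts and given the inflammatory cytokine IL-1β at 10 ng/ml, co-cultured without IL-1β, in normal culture with IL-1β, and in normal culture without IL-1β, each taken at 36 h and at 72 h. The fibroblasts came from digested skin and are not the RNA measured here, and the co-culture medium is not stated, so medium and the presence of fibroblasts cannot be told apart. The labels do not say whether the 3 libraries of a group came from separate animals or cultures, so the p-values measure the spread between these libraries, which may be technical.

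SOX9 is the transcription factor that sets and keeps chondrocyte identity: it binds enhancers of cartilage collagen and proteoglycan genes, and SOX5 and SOX6, which lack an activation domain of their own, bind nearby and strengthen its action. RUNX proteins bind DNA together with the partner CBFB; RUNX2 drives osteoblast formation and, with RUNX3, the hypertrophic maturation of chondrocytes, while RUNX1 is best known from blood formation and is also made in cartilage. TRPS1 and NKX3-2 are repressors that hold back chondrocyte maturation, and PRRX1 is a homeobox factor of limb mesenchyme.

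The sums of FPKM over all genes lay between 438242 and 506621 per library, and read depth is unknown. The third libraries of both IL-1β groups at 72 h had the highest sums, 504696 in co-culture and 506621 in normal culture, and the residual SD of log2 values was 0.12 and 0.17 in these groups, against 0.09 to 0.10 in the other 6. All 10 chondrocyte markers were measured, and their summed level was 282 to 326 FPKM in IL-1β-treated libraries at 72 h, against 1024 to 1117 FPKM in untreated ones. Of the 7 lymphoid markers, 5 were measured and summed to at most 0.46 FPKM, while Cd3e and Nkg7 were absent from the data. Dermal fibroblast markers (10 genes, several of which chondrocytes also make) summed to 2502 to 3194 FPKM with IL-1β and 830 to 1116 FPKM without it at 36 h, and to 1210 to 1379 FPKM with IL-1β and 306 to 389 FPKM without it at 72 h. Most of that sum was Dcn and Lum, matrix proteoglycan genes, with up to 2108 and 900 FPKM. Gene by gene the list went both ways with IL-1β: 5 were higher and 3 lower in co-culture at 36 h and 5 higher and 4 lower at 72 h, and 4 higher and 3 lower in normal culture at 36 h and 5 higher and 5 lower at 72 h. Skeletal muscle markers (11 genes, of which Pax7 never passed 0.02 FPKM) summed to 234 to 300 FPKM with IL-1β and 209 to 253 FPKM without it at 36 h, and to 75.2 to 118 FPKM with IL-1β and 38.6 to 58.5 FPKM without it at 72 h. The part of other cell types in the differences below was not tested, and in bulk RNA fewer cells of a type and less RNA per cell cannot be told apart.

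Sox9, Sox6, Runx3, Trps1 and Nkx3-2 fell with IL-1β in both cultures at both times, and Prrx1 rose at 36 h in both. The fall of Nkx3-2 in normal culture at 36 h was favoured by the filter. In co-culture at 36 h, 1 of the 10 was higher and 6 lower (adjusted p under 0.05, limma on log2(FPKM + 1), Benjamini-Hochberg over all 12178 tested genes), where 58.7% of all tested genes passed, 23.4% higher and 35.3% lower. In co-culture at 72 h none was higher and 7 were lower, beside 49.1% of all genes, 18.5% higher and 30.6% lower. In normal culture 3 were higher and 5 lower at 36 h, beside 67.5% of all genes, 25.9% higher and 41.5% lower, and none was higher and 8 lower at 72 h, beside 63.4%, 23.1% higher and 40.3% lower. The treated and untreated libraries did not overlap for 9 and 6 of the 10 genes in co-culture at 36 h and 72 h, beside 70.2% and 56.9% of all genes, and for 7 and 8 in normal culture, beside 73% and 61.6%. With 49.1% to 67.5% of all tested genes called, the counts by themselves say little about these 10.

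**Figure D1:**
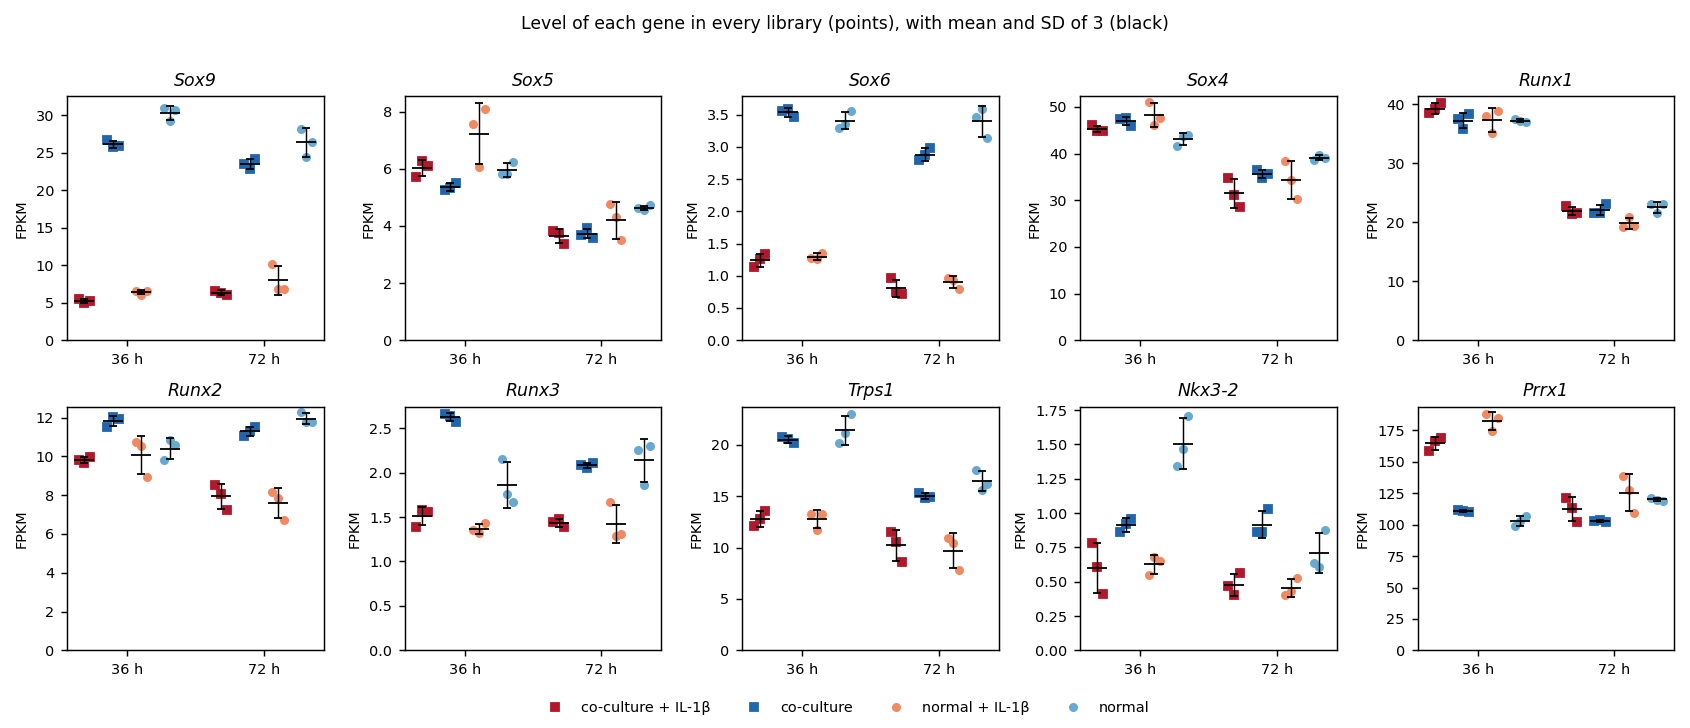
FPKM (vertical axes, each from 0) of the 10 genes in each of 24 libraries, by group at 36 h and 72 h; points are libraries and black marks the mean and SD of 3. Sox9 and Sox6 lie low in every IL-1β-treated group, and Runx1 lies lower at 72 h than at 36 h in every group.

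Sox9 had the largest fall of the 10 on the log2(FPKM + 1) scale. As a ratio of group means, Sox6 fell further than Sox9 in normal culture at 72 h. There Sox6 averaged 0.90 FPKM with IL-1β and 3.40 FPKM without, and Sox9 averaged 7.98 and 26.36 FPKM. In co-culture at 36 h Sox9 had 5.47, 4.94 and 5.29 FPKM with IL-1β, against 26.6, 25.8 and 25.9 FPKM without. In normal culture at 36 h it had 6.59, 6.09 and 6.52 FPKM with IL-1β, against 30.9, 29.3 and 30.7 FPKM without. Treated and untreated libraries were far apart in both cultures, and the treated mean was 20.1% of the untreated one in co-culture and 21.1% in normal culture. At 72 h Sox9 had 6.62, 6.33 and 5.99 FPKM with IL-1β against 23.6, 22.8 and 24.2 FPKM without in co-culture. It had 10.2, 6.89 and 6.86 FPKM with IL-1β against 28.2, 24.4 and 26.5 FPKM without in normal culture. Again the groups did not overlap, and the first treated library of normal culture was the highest of the treated ones. On the log2(FPKM + 1) scale, which understates changes of low genes, the IL-1β difference of Sox9 was -2.12 ± 0.09 (SE) in co-culture and -2.08 ± 0.09 in normal culture at 36 h, with limma adjusted p of 4.54e-15 and 4.25e-15, and -1.74 ± 0.09 and -1.63 ± 0.09 at 72 h, with adjusted p of 1.55e-13 and 4.07e-13. Sox9 ranked 34 and 60 from the most lowered of the 12178 genes in co-culture and normal culture at 36 h, and 40 and 69 at 72 h.

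The fall of Sox9 was smaller at 72 h than at 36 h: the IL-1β difference at 72 h minus that at 36 h was 0.46 ± 0.13 (SE) on the log2 scale in normal culture, with a limma adjusted p of 0.00519, and 0.38 ± 0.13 in co-culture, with an adjusted p of 0.027. The co-culture call was lost on leaving out any 1 of 4 libraries (the first untreated and second treated at 36 h, the second untreated and first treated at 72 h), with values of 0.34 to 0.36 and adjusted p of 0.0555 to 0.0679, and on TPM values (0.39, adjusted p = 0.0593). Of the 10 genes, 8 passed this test in normal culture, 2 positive and 6 negative, beside 45.4% of all genes (23.7% positive and 21.6% negative), and 2 passed in co-culture, 1 positive and 1 negative, beside 28.8% (14.1% positive and 14.8% negative). In IL-1β-treated libraries Sox9 itself was higher at 72 h than at 36 h, by 0.23 in co-culture and 0.26 in normal culture on the log2 scale, with adjusted p of 0.027 and 0.0128; both calls were lost on TPM values, with adjusted p of 0.0815 and 0.0713, the co-culture one also on values scaled by medians of ratios (adjusted p = 0.0586) and the normal-culture one with only the compared groups fitted (adjusted p = 0.123). Without the first treated library of normal culture at 72 h the second difference was 0.09, with an adjusted p of 0.151, and the co-culture call was lost without the second library at 36 h or the first or second at 72 h, with adjusted p of 0.0969, 0.0866 and 0.0572.

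Sox5 did not follow Sox9. It had 5.72, 6.26 and 6.11 FPKM in IL-1β-treated and 5.25, 5.32 and 5.51 FPKM in untreated co-culture at 36 h. It had 7.57, 6.05 and 8.08 FPKM in IL-1β-treated and 5.83, 5.81 and 6.23 FPKM in untreated normal culture at 36 h. Only the normal-culture groups overlapped, through the second treated library. The difference was 0.24 ± 0.08 (SE) on the log2 scale in normal culture, with a limma adjusted p of 0.0148 that was lost on TPM values (0.20, adjusted p = 0.112) and without the first or the third treated library (0.20 and 0.16, adjusted p of 0.0622 and 0.11), and 0.14 in co-culture, with an adjusted p of 0.138 that passed, at 0.0248, with only the compared groups fitted. At 72 h Sox5 differed by -0.03 with IL-1β in co-culture and -0.12 in normal culture, with adjusted p of 0.818 and 0.192 and 95% intervals of -0.20 to 0.14 and -0.29 to 0.05; the normal-culture difference passed without its first treated library, at -0.21 with an adjusted p of 0.0369, and on TPM values, at -0.25 with an adjusted p of 0.0449.

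Sox6 fell with IL-1β in both cultures and at both times. In co-culture at 36 h it had 1.13, 1.26 and 1.33 FPKM with IL-1β against 3.56, 3.59 and 3.46 FPKM without. In normal culture it had 1.27, 1.26 and 1.36 FPKM with IL-1β against 3.30, 3.36 and 3.56 FPKM without. Treated libraries were all below the untreated ones at 36 h. At 72 h it had 0.96, 0.75 and 0.71 FPKM with IL-1β against 2.79, 2.87 and 2.98 FPKM without in co-culture. It had 0.97, 0.94 and 0.79 FPKM with IL-1β against 3.47, 3.59 and 3.13 FPKM without in normal culture. No treated library reached an untreated one. The treated mean was 35.1% of the untreated one in co-culture and 38.1% in normal culture at 36 h, and 28.0% and 26.5% at 72 h. The log2 differences of Sox6 in co-culture and normal culture were -1.02 and -0.94 at 36 h and -1.11 and -1.21 at 72 h, each with an SE of 0.06 and with adjusted p between 1.11e-13 and 7.41e-12. In normal culture the fall of Sox6 was larger at 72 h by -0.27 ± 0.09 on the log2 scale, with an adjusted p of 0.0146.

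The balance between Sox9 and Sox5 differed between groups. Sox9 over Sox5, as a ratio of FPKM within each library, averaged 0.87 ± 0.08 in IL-1β-treated and 4.87 ± 0.19 in untreated co-culture at 36 h, and 0.89 ± 0.10 in IL-1β-treated and 5.09 ± 0.19 in untreated normal culture (SD, n = 3 each). Sox5 was above Sox9 in 3 of 3 treated co-culture libraries and 2 of 3 treated normal-culture libraries at 36 h, and in no library of the other 6 groups. At 72 h the ratio averaged 1.73 ± 0.04 in IL-1β-treated and 6.31 ± 0.46 in untreated co-culture, and 1.90 ± 0.27 in IL-1β-treated and 5.69 ± 0.39 in untreated normal culture. Sox5 over Sox6 averaged 4.87 ± 0.25 in IL-1β-treated and 1.52 ± 0.07 in untreated co-culture at 36 h, and 5.57 ± 0.66 in IL-1β-treated and 1.75 ± 0.02 in untreated normal culture. The treated libraries lay above 4 on average at both times for this second ratio. The ratios were not tested.

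**Figure D2:**
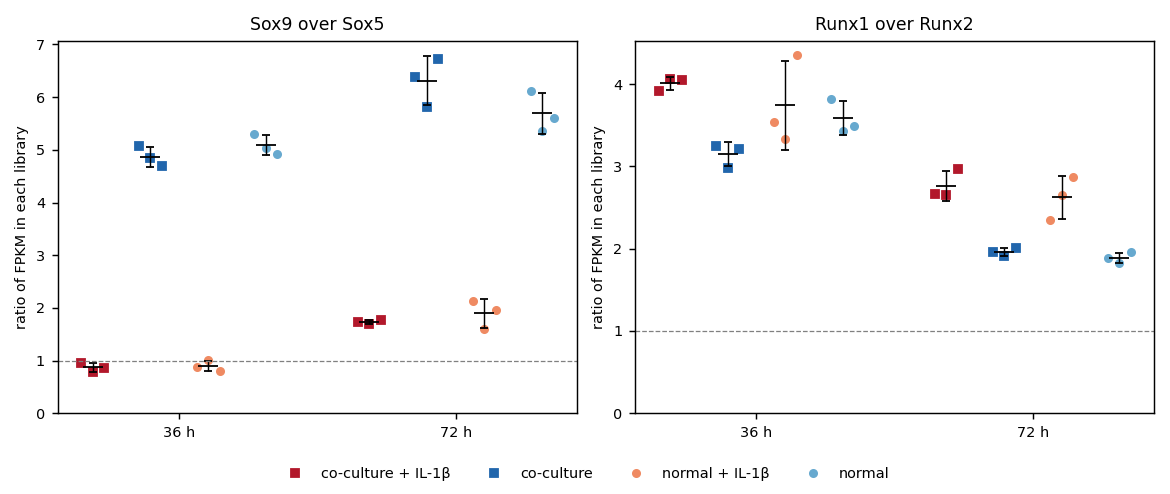
Ratio of FPKM within each library (vertical axes, from 0) of Sox9 over Sox5 and of Runx1 over Runx2, by group at 36 h and 72 h; black marks the mean and SD of 3, and the dashed line is a ratio of 1. In the left panel the IL-1β-treated groups lie near 1 at 36 h, and the untreated groups lie near 5 to 6.

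Cartilage matrix genes, listed as reported targets of SOX9 with SOX5 and SOX6, fell along with Sox9 under IL-1β. Of 20 listed genes, 16 were tested. Of these, 15 fell in co-culture at 36 h and 72 h, 14 fell in normal culture at 36 h and 15 at 72 h, and 1 rose in each. Over all tested genes, 18.5% to 25.9% were higher and 30.6% to 41.5% lower in these settings. The median difference of the list was -1.28 in co-culture and -1.22 in normal culture at 36 h, beside -0.06 and -0.09 over all tested genes, and -1.20 and -1.27 at 72 h, beside -0.06 and -0.08. In normal culture at 36 h, Cnmd, which encodes an angiogenesis inhibitor of cartilage, differed by -3.65, Comp, a pentameric matrix protein, by -3.05, Ucma, a secreted protein of cartilage, by -2.46 and Acan, the large aggregating proteoglycan, by -2.32 on the log2 scale, with adjusted p of 2.69e-14, 3.08e-16, 2.43e-11 and 2.83e-13. At 72 h in normal culture Acan differed by -3.01, Cnmd by -2.72, Comp by -2.70 and the collagen chain gene Col9a1 by -2.39. Cnmd, Col11a2 and Matn3 reached 1 FPKM in untreated libraries only and passed the filter through them. Their falls, which are part of the counts above, were therefore favoured by the filter. The 1 gene that rose in each setting was Epyc, a small leucine-rich proteoglycan. Epyc is named after its values were seen.

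Sox4, a SOX gene of another subgroup that is made in many progenitor cells, was much higher than Sox5 and Sox6 and moved little with IL-1β. It had 46.0, 44.9 and 44.8 FPKM in IL-1β-treated and 47.3, 47.6 and 45.9 FPKM in untreated co-culture at 36 h. It had 51.1, 46.1 and 47.7 FPKM in IL-1β-treated and 41.6, 43.7 and 44.0 FPKM in untreated normal culture. The IL-1β difference was -0.05 in co-culture, with an adjusted p of 0.512, and 0.16 ± 0.07 (SE) in normal culture, with an adjusted p of 0.0346 that was lost on TPM values (0.10, adjusted p = 0.301) and without any 1 of 4 libraries, the first or second untreated or the first or the third treated, with adjusted p of 0.0528 to 0.154. At 72 h Sox4 had 34.8, 31.0 and 28.6 FPKM in IL-1β-treated and 36.4, 34.8 and 35.6 FPKM in untreated co-culture. It had 38.3, 34.4 and 30.2 FPKM in IL-1β-treated and 38.5, 39.7 and 39.1 FPKM in untreated normal culture. The fall at 72 h, -0.18 in co-culture and -0.19 in normal culture (adjusted p of 0.0297 and 0.0142), was lost in several alternatives. Without the third treated library of each culture it was -0.11 in each, with adjusted p of 0.0787 and 0.0779. On values scaled by medians of ratios it was -0.13 and -0.11, with adjusted p of 0.125 and 0.168, and with only the compared groups fitted the adjusted p were 0.0528 and 0.091. The co-culture call was also lost without the second treated or the first or the third untreated library, with adjusted p of 0.0739, 0.0889 and 0.0616.

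Windows around annotated starts of the RUNX genes share a run of letters, given here as a description. The part of this run in the level or the IL-1β response of the 3 genes was not tested. In RefSeq windows of 250 bases before and 50 after annotated starts (GRCm38.p6), 8 of the 10 genes had 15 windows, and 1 window each of Runx1 (chr16:92826025-92826324, minus strand), Runx2 (chr17:44814578-44814877, minus strand) and Runx3 (chr4:135120395-135120694, plus strand) held the same 18 bases, in capitals below, 5′ to 3′ along each gene.
Runx1: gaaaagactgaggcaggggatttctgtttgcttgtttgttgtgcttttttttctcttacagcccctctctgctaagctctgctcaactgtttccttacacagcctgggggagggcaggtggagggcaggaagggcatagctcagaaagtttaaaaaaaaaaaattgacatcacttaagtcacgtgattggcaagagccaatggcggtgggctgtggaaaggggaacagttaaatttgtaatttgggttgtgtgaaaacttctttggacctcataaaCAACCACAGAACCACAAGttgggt
Runx2: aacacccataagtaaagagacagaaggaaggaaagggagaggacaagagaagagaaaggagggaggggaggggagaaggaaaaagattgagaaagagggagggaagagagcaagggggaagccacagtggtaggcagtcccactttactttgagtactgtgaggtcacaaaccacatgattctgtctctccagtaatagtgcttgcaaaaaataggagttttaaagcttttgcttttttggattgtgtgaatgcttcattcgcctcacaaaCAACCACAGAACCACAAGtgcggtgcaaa
Runx3: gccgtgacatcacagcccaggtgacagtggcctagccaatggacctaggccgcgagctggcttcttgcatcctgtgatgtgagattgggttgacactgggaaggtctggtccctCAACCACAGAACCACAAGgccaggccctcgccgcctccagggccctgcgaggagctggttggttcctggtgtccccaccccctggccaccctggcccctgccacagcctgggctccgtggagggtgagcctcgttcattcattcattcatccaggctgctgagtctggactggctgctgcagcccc
The run holds 2 copies of ACCACA, the letters of the RUNX binding motif, and was found in 4 of 32851 such windows, those 3 and 1 other. ACCACA on either strand was present in 5 of the 15 windows, among them the 3 picked for the run, beside 16.8% of all windows. AACAAT, the letters of a SOX motif, was present in 1 of the 15, a window of Sox6, beside 10.7%, and the NF-kB consensus in none, beside 8.46%. These are matches of letters, and the expression values are per gene, so start sites could not be separated.

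Runx1 was the most expressed RUNX gene in every group and did not pass the IL-1β test at 36 h, with differences of 0.08 in co-culture and 0.00 in normal culture and adjusted p of 0.158 and 0.964; on values scaled by medians of ratios the co-culture one passed, at 0.12 with an adjusted p of 0.0265. It had 38.4, 39.1 and 40.3 FPKM in IL-1β-treated and 37.4, 35.8 and 38.3 FPKM in untreated co-culture. It had 38.0, 35.1 and 38.9 FPKM in IL-1β-treated and 37.5, 37.2 and 37.0 FPKM in untreated normal culture. The groups overlapped in normal culture and were just clear of each other in co-culture. At 72 h it had 22.7, 21.4 and 21.5 FPKM in IL-1β-treated and 21.6, 21.6 and 23.1 FPKM in untreated co-culture. It had 19.2, 20.9 and 19.3 FPKM in IL-1β-treated and 23.2, 21.5 and 23.0 FPKM in untreated normal culture. The 72 h difference with IL-1β in normal culture was -0.18 ± 0.05 (SE) on the log2 scale, with an adjusted p of 0.00175 that was lost on values scaled by medians of ratios (-0.10, adjusted p = 0.0598).

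Runx2 fell with IL-1β in 3 of 4 settings. It had 9.80, 9.64 and 9.95 FPKM in IL-1β-treated and 11.5, 12.0 and 12.0 FPKM in untreated co-culture at 36 h, with no overlap. It had 10.7, 10.5 and 8.93 FPKM in IL-1β-treated and 9.80, 10.8 and 10.6 FPKM in untreated normal culture, which overlapped. At 72 h it had 8.53, 8.06 and 7.26 FPKM in IL-1β-treated and 11.1, 11.3 and 11.5 FPKM in untreated co-culture. It had 8.16, 7.87 and 6.72 FPKM in IL-1β-treated and 12.3, 11.8 and 11.8 FPKM in untreated normal culture. At 72 h the groups were clear of each other in both cultures. The differences were -0.25 and -0.05 at 36 h in co-culture and normal culture, with adjusted p of 0.00273 and 0.547, and -0.46 and -0.60 at 72 h, with adjusted p of 4.8e-06 and 7.1e-08. In normal culture the change of the IL-1β difference between 36 h and 72 h was -0.55 ± 0.09 (SE), with an adjusted p of 6.2e-05.

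Runx3, the lowest RUNX gene, fell with IL-1β in all 4 settings. It had 1.39, 1.58 and 1.56 FPKM in IL-1β-treated and 2.66, 2.64 and 2.57 FPKM in untreated co-culture at 36 h. It had 1.36, 1.32 and 1.43 FPKM in IL-1β-treated and 2.15, 1.76 and 1.67 FPKM in untreated normal culture. The groups did not overlap at 36 h. At 72 h it had 1.44, 1.48 and 1.39 FPKM in IL-1β-treated and 2.09, 2.05 and 2.11 FPKM in untreated co-culture. It had 1.67, 1.29 and 1.31 FPKM in IL-1β-treated and 2.26, 1.86 and 2.30 FPKM in untreated normal culture. The log2 differences were -0.53 and -0.27 in co-culture and normal culture at 36 h and -0.34 and -0.37 at 72 h, each with an SE of 0.07 and with adjusted p of 0.00196 or less.

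Cbfb, the partner subunit of all RUNX proteins, was more abundant than any RUNX gene. It averaged 40.8 ± 2.38 FPKM in IL-1β-treated and 61.4 ± 0.98 FPKM in untreated normal culture at 36 h (SD, n = 3 each), and its log2 difference there was -0.58, with an adjusted p of 1.84e-10. The difference was -0.67 in normal culture at 72 h, and -0.50 and -0.36 in co-culture at 36 h and 72 h. At 72 h the fall was smaller in co-culture, with a limma interaction of 0.31 (adjusted p = 0.013). Of 16 listed RUNX partner, osteoblast and hypertrophy genes, 13 were tested: 4 rose and 6 fell with IL-1β in co-culture at 36 h, 6 rose and 6 fell in normal culture at 36 h, and 4 rose with 7 falling in co-culture and 8 falling in normal culture at 72 h. Over all tested genes, 18.5% to 25.9% were higher and 30.6% to 41.5% lower in these settings. The median difference was -0.05 in normal culture at 36 h and -0.27 at 72 h, beside -0.09 and -0.08 over all genes. In normal culture at 36 h, Alpl, the bone phosphatase, differed by 1.59, Ibsp, a bone sialoprotein, by -1.47, and Vegfa, the angiogenic growth factor, by 1.41. Ibsp passed the filter only through untreated libraries at 36 h, so its fall was favoured by the filter. At 72 h in normal culture Mmp13, the collagenase of hypertrophic cartilage, differed by 4.92 and Vegfa by 1.77. Spp1, a matrix phosphoprotein of bone, differed by 1.497 there and Sp7, an osteoblast transcription factor, by -1.03. At 36 h in normal culture Mmp13 differed by 0.78 and Sp7 by 0.49, so in normal culture Sp7 changed sign between the times. In co-culture Sp7 differed by 0.01 at 36 h, with a limma adjusted p of 0.944, and by -0.84 at 72 h. From 36 h to 72 h Mmp13 changed by -4.79 in untreated and -0.65 in IL-1β-treated normal culture. Sp7 changed by 2.04 and 0.51 in the same order.

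Trps1 fell with IL-1β in every setting. At 36 h it had 12.1, 12.8 and 13.5 FPKM in IL-1β-treated and 20.8, 20.5 and 20.1 FPKM in untreated co-culture. It had 13.3, 11.7 and 13.3 FPKM in IL-1β-treated and 20.2, 21.2 and 23.0 FPKM in untreated normal culture. The groups did not overlap at 36 h. At 72 h it had 11.5, 10.6 and 8.55 FPKM in IL-1β-treated and 15.3, 14.9 and 14.9 FPKM in untreated co-culture. It had 10.9, 10.4 and 7.78 FPKM in IL-1β-treated and 17.6, 15.6 and 16.2 FPKM in untreated normal culture. No treated library reached an untreated one, and the log2 differences in co-culture and normal culture were -0.64 and -0.71 at 36 h and -0.52 and -0.72 at 72 h, with an SE of 0.09 and adjusted p of 8.05e-05 or less.

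Nkx3-2 was near the filter in most libraries. At 36 h it had 0.78, 0.61 and 0.41 FPKM in IL-1β-treated and 0.86, 0.92 and 0.96 FPKM in untreated co-culture. It had 0.55, 0.68 and 0.65 FPKM in IL-1β-treated and 1.34, 1.47 and 1.71 FPKM in untreated normal culture. The 3 untreated normal-culture libraries stood above all others. Nkx3-2 passed the filter through these libraries, so its fall in normal culture at 36 h was favoured by the filter. At 72 h it had 0.47, 0.40 and 0.56 FPKM in IL-1β-treated and 0.86, 0.86 and 1.03 FPKM in untreated co-culture. It had 0.40, 0.43 and 0.53 FPKM in IL-1β-treated and 0.64, 0.61 and 0.88 FPKM in untreated normal culture. The log2 differences in co-culture and normal culture were -0.26 and -0.62 at 36 h and -0.38 and -0.23 at 72 h, with adjusted p between 7.33e-07 and 0.0182. The co-culture call at 36 h was lost without the third treated library (-0.18, adjusted p = 0.0821), and the normal-culture call at 72 h without the third untreated or the first treated library (-0.16 and -0.21, adjusted p of 0.12 and 0.0585) and with only the compared groups fitted (adjusted p = 0.055).

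Prrx1, the most expressed of the 10 in every group, was the member with the largest rise under IL-1β, at 36 h. In co-culture it had 158, 167 and 169 FPKM with IL-1β against 112, 111 and 109.9 FPKM without. In normal culture it had 188, 174 and 185 FPKM with IL-1β against 99.1, 103 and 107 FPKM without. The treated libraries were all above the untreated ones, and the differences were 0.57 ± 0.06 and 0.82 ± 0.06 (SE) on the log2 scale in co-culture and normal culture, with adjusted p of 9.92e-08 and 1.58e-10. At 72 h Prrx1 had 121, 114 and 102 FPKM in IL-1β-treated and 103, 104 and 102 FPKM in untreated co-culture. It had 139, 127 and 109.6 FPKM in IL-1β-treated and 121.5, 119.9 and 119 FPKM in untreated normal culture. These overlapped, with differences of 0.13 and 0.06 and adjusted p of 0.11 and 0.461; without the third treated libraries they were 0.19 and 0.15, with adjusted p of 0.00136 and 0.00646, and the co-culture one also passed on values scaled by medians of ratios, at 0.17 with an adjusted p of 0.0364. The change of the IL-1β difference from 36 h to 72 h was -0.44 ± 0.09 in co-culture and -0.76 ± 0.09 in normal culture, with adjusted p of 7.37e-04 and 6.06e-07.

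**Figure D3:**
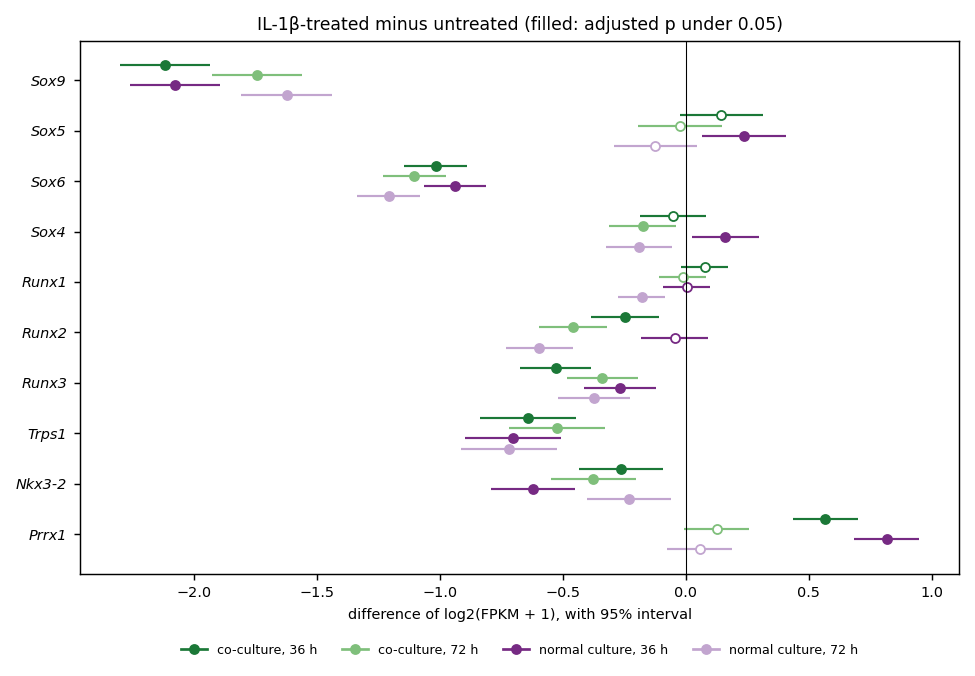
Difference of log2(FPKM + 1) between IL-1β-treated and untreated libraries (horizontal axis, with 95% interval from limma) for each gene in 4 settings; filled points have an adjusted p under 0.05. Sox9 lies lowest at -2.12 to -1.63, and Prrx1 lies highest at 36 h.

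Among 50 other skeletal transcription factors, of which 40 were tested, 11 rose and 21 fell with IL-1β in co-culture at 36 h, 12 rose and 23 fell in normal culture at 36 h, 11 rose and 20 fell in co-culture at 72 h, and 10 rose and 21 fell in normal culture at 72 h. Over all tested genes, 18.5% to 25.9% were higher and 30.6% to 41.5% lower in these settings. The list median in normal culture at 36 h was -0.16, beside -0.09 over all genes. In normal culture at 36 h, Msx2, a homeobox factor of skull and limb, differed by 1.55, Scx, the tendon factor, by 1.46, Barx1 by -1.22 and Pitx1, a hindlimb factor, by -1.07. In co-culture at 72 h, Erg, a factor of joint cartilage, differed by -1.47, Sox11, a relative of Sox4, by 1.45, Pitx1 by -1.25 and Barx1 by -1.20. The balance of higher and lower calls over all genes moved with the scaling, while no call of the 10 genes reversed: in normal culture at 72 h 2809 genes were higher and 4909 lower, 2134 and 6760 on TPM values, and 3623 and 3872 on values scaled by medians of ratios.

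Co-culture with dermal fibroblasts gave few calls among the 10 genes over all 24 libraries, and more with only the compared groups fitted. The shares of all genes below belong to the fit over all 24 libraries. No share was determined for the compared groups only, so the counts from that fit cannot be set against these shares. At 36 h without IL-1β 1 was higher and 1 lower, beside 15.5% of all genes (6.28% higher and 9.2% lower), a share near that of the 10, and 4 had an unadjusted p under 0.05. Runx3 was higher in co-culture by 0.34 ± 0.07 (SE) on the log2 scale, with an adjusted p of 0.00148, and Nkx3-2 was lower, at -0.39 ± 0.08, with an adjusted p of 0.00221; their library values are given above and did not overlap. Nkx3-2 entered the test only through untreated normal culture, against which it is compared here, so its difference was favoured by the filter; with no filter its adjusted p was 0.00188. With only the compared groups fitted, 6 of the 10 passed: Sox9 at -0.21, Sox4 at 0.12, Runx2 at 0.17 and Prrx1 at 0.10 were added, with adjusted p of 0.00213, 0.0247, 0.0225 and 0.042. At 72 h without IL-1β none passed (3 at an unadjusted p under 0.05), beside 3.4% of all genes (1.72% higher and 1.68% lower), and at 36 h under IL-1β none passed (3 at an unadjusted p under 0.05), beside 10.6% (6.38% higher and 4.17% lower). With only the compared groups fitted, Sox5 at -0.25, Sox4 at -0.13 and Prrx1 at -0.22 passed at 72 h without IL-1β, with adjusted p of 0.0197, 0.0349 and 0.00315, and Sox9 at -0.25 and Prrx1 at -0.15 passed at 36 h under IL-1β, with adjusted p of 0.0191 and 0.0439. At 72 h under IL-1β 1 passed, beside 12.5% (7.22% higher and 5.26% lower): Sox9 was lower in co-culture, at -0.28 ± 0.09, with an adjusted p of 0.0433. That call was not stable: without the first IL-1β-treated library of normal culture (10.2 FPKM) the difference was -0.11, with an adjusted p of 0.275. It was also lost without any 1 of the 3 co-culture libraries, with adjusted p of 0.0631 to 0.106, on TPM values, with an adjusted p of 0.0795, with no filter (0.0688) and with only the compared groups fitted (0.465). With a replicate block the adjusted p was 0.0215 over all libraries and 0.176 over the compared groups only. Without the third IL-1β-treated library of normal culture at 72 h, Sox5, Sox4 and Prrx1 also passed, at -0.25, -0.20 and -0.25, and without the second one Runx1 passed, at 0.18. With all libraries kept, Runx1 differed by 0.14, with a limma adjusted p of 0.051. It passed with a filter at 5 FPKM (adjusted p = 0.0457) and with a replicate block over all libraries (adjusted p = 0.048). At 36 h under IL-1β, Sox5 passed without the second library of normal culture, at -0.33. Libraries of co-culture and normal culture did not overlap for 7 genes at 36 h and 7 at 72 h without IL-1β, beside 42.1% and 33.8% of all genes, and for 3 and 2 under IL-1β, beside 32.7% and 19.2%. The limma interaction of co-culture and IL-1β was called for none of the 10 at 36 h (5 at an unadjusted p under 0.05), beside 6.96% of all genes (4.73% positive and 2.23% negative). Runx3 at -0.33 and Nkx3-2 at 0.45 each passed when 1 library was left out, the first untreated normal-culture one and the third treated co-culture one. The Nkx3-2 value uses untreated normal culture at 36 h, so it was favoured by the filter. Sox4 at -0.21 and Prrx1 at -0.25 passed with only the compared groups fitted, with adjusted p of 0.0172 and 0.00566. At 72 h the interaction was called for none (1 at an unadjusted p under 0.05), beside 3.11% (1.68% positive and 1.43% negative).

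**Figure D4:**
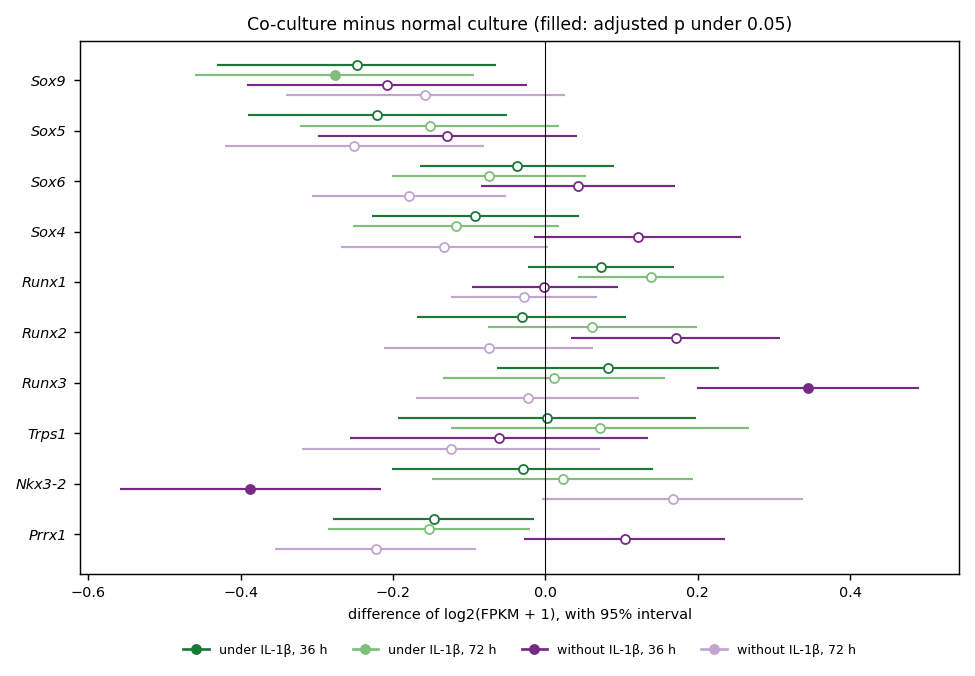
Difference of log2(FPKM + 1) between co-culture and normal culture (horizontal axis, with 95% interval from limma) for each gene, with and without IL-1β at 36 h and 72 h; filled points have an adjusted p under 0.05. Most intervals reach 0; without IL-1β at 36 h the filled points are Runx3 at 0.34 and Nkx3-2, favoured by the filter, at -0.39.

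Among the 40 tested other skeletal transcription factors, 2 were higher and 7 lower in co-culture without IL-1β at 36 h. Over all tested genes 6.28% were higher and 9.2% lower there. Scx differed by 0.48, Smad3, a carrier of TGF-beta signals, by -0.28 and Snai2, a repressor of the Snail family, by -0.27 on the log2 scale.

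Runx1 was lower at 72 h than at 36 h in all 4 arms. Its mean at 72 h was 55.7% of that at 36 h in IL-1β-treated and 59.4% in untreated co-culture, and 53.0% in IL-1β-treated and 60.6% in untreated normal culture. The log2 differences were -0.82, -0.73, -0.88 and -0.70 in that order, each with an SE of 0.05 and adjusted p between 3.73e-13 and 1.92e-11. Of the 10 genes, 1 was higher and 7 lower at 72 h in IL-1β-treated co-culture, beside 64.3% of all genes (35.4% higher and 28.9% lower), and none was higher and 6 lower in untreated co-culture, beside 61.5% (36.6% and 24.9%). In normal culture 1 was higher and 7 lower with IL-1β, beside 69.1% (37.1% and 32%), and 2 were higher and 4 lower without it, beside 58.4% (33.1% and 25.3%). Nkx3-2 was among the 4 lower in untreated normal culture. It passed the filter through that arm at 36 h, so this fall was favoured by the filter. The 72 h and 36 h libraries did not overlap for 8 genes in treated and 8 in untreated co-culture, beside 67.7% and 72.7% of all genes, and for 9 in treated and 8 in untreated normal culture, beside 64.7% and 68.7%. Sox5 fell in all 4, by -0.60 and -0.43 in treated and untreated co-culture and by -0.66 and -0.30 in treated and untreated normal culture. Trps1 also fell in all 4, by -0.30, -0.42, -0.37 and -0.36 in the same order; in treated co-culture its call was lost without the third library at 72 h (-0.19, adjusted p = 0.0765). Prrx1 fell with time under IL-1β, by -0.55 in co-culture and -0.54 in normal culture, and rose by 0.22 in untreated normal culture. Runx2 also rose there, by 0.18, a call lost without the first library at 36 h or at 72 h, with adjusted p of 0.1 and 0.0686, and on TPM values (adjusted p = 0.0564).

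Genes outside the skeletal lists also differed between the 72 h and 36 h libraries. The Y-linked genes Ddx3y, Eif2s3y, Kdm5d and Uty were lower at 72 h in all 4 arms, by limma at adjusted p of 3.77e-05 or less. Ddx3y ranged over 4.96 to 7.40 FPKM at 72 h and 11.9 to 14.8 FPKM at 36 h, with no overlap among 12 libraries each. Skeletal muscle markers also fell, with 10 of 10 tested genes lower in untreated normal culture, beside 25.3% of all genes. There 9 of 10 tested myeloid markers were higher, beside 33.1% of all genes. Time and the source of the cultures cannot be told apart.

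**Figure D5:**
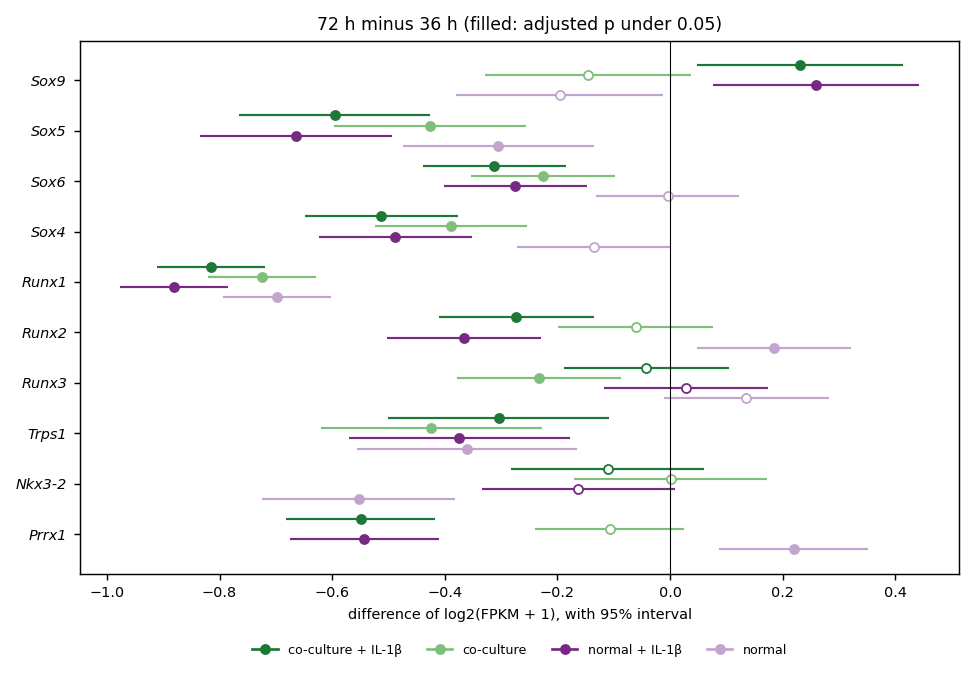
Difference of log2(FPKM + 1) between 72 h and 36 h (horizontal axis, with 95% interval from limma) for each gene in 4 arms; filled points have an adjusted p under 0.05. Runx1 lies lowest in all 4 arms, between -0.88 and -0.70.

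The ratio of Runx1 to Runx2 was lower at 72 h than at 36 h in all 4 arms, as group means that were not tested. It averaged 4.01 ± 0.08 in IL-1β-treated and 3.15 ± 0.14 in untreated co-culture at 36 h, and 2.76 ± 0.18 in IL-1β-treated and 1.96 ± 0.05 in untreated co-culture at 72 h (SD, n = 3 each). In normal culture it averaged 3.74 ± 0.54 with IL-1β and 3.58 ± 0.21 without at 36 h, and 2.63 ± 0.26 with IL-1β and 1.89 ± 0.06 without at 72 h.

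The genes whose 8 group means were most like each member, by Pearson's r among 2794 genes with enough level and spread, are given as a description; the points share libraries and scale. They were Eps8 for Sox9 (r = 0.99), Lpl for Sox5 (0.99), Tgfbr2 for Sox6 (0.99), Enpp5 for Sox4 (0.99), Sema3b for Runx1 (0.99), Lnpep for Runx2 (0.96), Cdsn for Runx3 (0.95), Cd276 for Trps1 (1.00), Ggt5 for Nkx3-2 (0.97) and Calcrl for Prrx1 (0.98). Runx1 was also close to the Y-linked Ddx3y (0.99). Between members, Sox9 and Sox6 had r = 0.96 and Sox5 and Sox4 had r = 0.93, while Sox9 and Sox5 had r = -0.11.

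Of the 10 genes, 4 (Sox5, Sox4, Runx1 and Runx2) overlap an antisense or neighbouring gene on the opposite strand within an exon, in GENCODE vM21 on GRCm38. Whether counting used strand is not stated, so reads from such partners cannot be told apart. Sox9 lies on chromosome 11 at 112782224 to 112787760, and Trps1 on chromosome 15 at 50654752 to 50890463.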

How the data were processed

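The deposited values are FPKM with 2 decimals, 1 for each gene in each library, per the file headers; the genome build was GRCm38, per the submitters' processing notes. The aligner, counter and strand setting are not given in the sources used here, and read depth is unknown, so no counting interval is given. Genes with at least 1 FPKM in at least 3 libraries were kept (12178 of 17094) and tested as log2(FPKM + 1) with limma 3.58.1 in R 4.3.3 (trended prior, 1 mean per group over all 24 libraries), with Benjamini-Hochberg adjustment over all tested genes and a threshold of 0.05; the script was tested on simulated data. Figures were drawn with matplotlib 3.10.9. The members and gene lists were chosen with earlier results of these data known. Genes named beside the members were up to 4 changed genes of a list with the largest differences in a comparison, Cbfb, and the genes most like each member; the Y-linked genes were added after the data were seen. Alternatives were other pseudocounts, filters, scalings (TPM, medians of ratios), the compared groups only, a replicate block, and each library left out. Replicate numbers were checked as pairs: libraries of the same number deviated together (r of 0.36, 0.18 and 0.58) only for co-culture against normal culture under IL-1β at 72 h.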

Additional observations from a re-analysis of the deposited data

Results flagged for a closer look

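The IL-1β difference changed between 36 h and 72 h by the interaction test for 10 results, given as the log2 difference at 72 h minus that at 36 h. In co-culture the values were 0.3763 for Sox9 and -0.442 for Prrx1. In normal culture they were 0.4553 for Sox9, -0.3596 for Sox5, -0.2703 for Sox6, -0.3522 for Sox4, -0.1834 for Runx1, -0.5501 for Runx2, 0.3899 for Nkx3-2 and -0.7624 for Prrx1. These comparisons share their libraries with the IL-1β and time comparisons. At 72 h the Y-linked genes were lower in every arm, and their part in these values was not tested. The calls of Sox5 and Runx1 in normal culture and of Sox9 in co-culture were lost when single libraries were left out, with adjusted p of up to 0.0533, 0.0756 and 0.0679. With only the compared groups fitted, Sox5 and Runx1 were lost as well, with adjusted p of 0.0577 and 0.0737. The Sox9 call in co-culture was lost on TPM values, with an adjusted p of 0.0593. The Nkx3-2 call was lost on log2(FPKM + 0.1) values, at 0.601 with an adjusted p of 0.0596. Its value was also favoured by the filter, which Nkx3-2 passed through untreated normal culture at 36 h.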

How the results depend on the processing

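Of 71 member results past the threshold, 54 stayed past it under every alternative run, and none reversed. The number of members called was, with a filter at 5 FPKM (7 members tested), 5, 5, 4 and 4 for IL-1β in normal culture at 36 h and 72 h and in co-culture at 36 h and 72 h, 0 and 1 for co-culture without IL-1β at 36 h and 72 h, and 2 under IL-1β at 72 h. Fitting the compared groups only gave 6 and 3 for co-culture without IL-1β at 36 h and 72 h, 2 and 0 under IL-1β, and 2 for the interaction at 36 h. With a replicate block over the compared groups the counts were 5, 2, 1, 0 and 2 in that order, and 5 for the change, in normal culture, of the response to IL-1β, where Sox5, Sox6 and Runx1 were lost (adjusted p of 0.0704, 0.0591 and 0.104). That block also lost Runx1 and Sox4 for IL-1β in normal culture at 72 h (adjusted p of 0.0818 and 0.0895) and gained Sox5 in co-culture treated for 36 h (adjusted p = 0.0348) and, for co-culture without IL-1β at 36 h, Sox9, Sox4 and Runx2 (adjusted p of 0.00542, 0.0495 and 0.0279); with the block over all libraries they were 1 and 2 for co-culture under IL-1β at 36 h and 72 h. With no filter and with TPM values the count for co-culture under IL-1β at 72 h was 0, and with TPM values the change of the IL-1β effect in co-culture had 1. Without the third libraries of both IL-1β groups at 72 h, chosen after seeing the data, it was 2 for co-culture under IL-1β at 72 h. With each library left out in turn the counts were 6 to 8 and 7 to 8 for IL-1β in normal culture, 6 to 7 at both times in co-culture, 2, 0, 0 to 1 and 0 to 4 for co-culture (without IL-1β at 36 h and 72 h, then under it), 6 to 7, 7 to 8, 6 and 7 to 9 for time, 0 to 1 and 0 for the interactions, and 6 to 8 and 1 to 2 for the change of the IL-1β effect. The causes were not tested. The share of all genes called was not determined with the compared groups only or with a replicate block, so those member counts have nothing beside them. Depth is unknown, which limits what can be said of Nkx3-2, Sox6 and Runx3.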
